A study of Caenorhabditis elegans with 21 samples.

Results

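The pals genes of Caenorhabditis elegans were followed in whole-worm RNA across 7 groups of worms. They were found as every gene of the expression table whose WormBase identifier joins to a symbol made of pals and a number. That rule gave 37 of the 46254 gene identifiers in the table. The name lists hold 38 such symbols with an identifier, and pals-21 was not analysed here. All members are named by symbol alone, and 36 of the 37 reached 1 FPKM (fragments per kilobase of transcript, scaled to the mapped fragments of the library) in at least 3 libraries and were tested. The remaining member, pals-13, was under 1 FPKM in all 21 libraries, with a highest value of 0.981, and the next lowest maximum was 5.57 FPKM for pals-15.

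The name pals stands for protein containing ALS2CR12 signature, and the family has expanded in C. elegans far beyond its number in mammals. Many pals genes belong to the intracellular pathogen response, a set of genes that worms switch on, in the intestine among other tissues, when microsporidia or the Orsay virus infect them, and also when the proteasome is blocked. Most members have no known role of their own, but pals-22 holds the response back, its neighbour pals-25 promotes it, and pals-5 is the usual reporter gene.

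All worms were of the wild-type strain N2, kept at 20 °C with E. coli OP50 as food, and were day 1 adults when RNA was taken. Each group had 3 libraries. Control worms were untreated, and starved worms spent their last 15 h without food. Drug groups were moved from the L4 stage to 200 µM fluphenazine (a phenothiazine antipsychotic), 200 µM cantharidin (a protein phosphatase inhibitor), or the proteasome inhibitor bortezomib at 10 µM or 25 µM. The last group was fed, from the L3 stage, bacteria for RNAi of rpn-6, a gene for a subunit of the proteasome lid. Vehicle and empty-vector groups were not analysed here, so a drug and its vehicle, or this knockdown and RNAi feeding, cannot be told apart. Whether libraries of a group came from separate cultures is not stated, so p-values measure only the spread between these libraries, which may be technical. Within a group, values are given in the order of the library numbers, which were 4, 6 and 7 for controls, 1, 2 and 3 for starvation, 2, 4 and 9 for fluphenazine, 1, 3 and 9 for cantharidin, 4, 5 and 6 for rpn-6 RNAi, 7, 8 and 9 for 10 µM bortezomib, and 3, 4 and 6 for 25 µM bortezomib. Read totals are not in the table, and estimated relative depth ran from 0.943 to 1.5 times that of control 4. The targeted gene, listed as rpn-6.1, stood at 168, 168 and 130.2 FPKM in controls and at 115, 122 and 127 after RNAi. The RNAi libraries were all below the controls, and the difference of -0.35 ± 0.14 (log2, ± SE) missed the threshold in limma's test (adjusted p = 0.0553). It was called lower than in controls in starvation, -0.38 ± 0.14 (adjusted p = 0.0255), fluphenazine, -0.36 ± 0.14 (adjusted p = 0.0397), and cantharidin, -0.36 ± 0.14 (adjusted p = 0.0457). It was called higher in 10 µM bortezomib, 0.49 ± 0.14 (adjusted p = 0.02496), and 25 µM bortezomib, 0.49 ± 0.14 (adjusted p = 0.006603).

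The family was low in control worms and was most abundant after rpn-6 RNAi. The summed FPKM of the 37 members had a lowest, median and highest library of 42.2, 44.5 and 76.8 in controls and of 1976, 2227 and 2285 after rpn-6 RNAi. In 25 µM bortezomib the corresponding sums were 1038, 1193 and 1361, and in 10 µM bortezomib 212, 215 and 241. These 4 ranges did not overlap. The sums were 126, 134 and 204 in starvation, 98.3, 169.9 and 241 in fluphenazine, and 242, 262 and 287 in cantharidin. The cantharidin sums therefore lay just above those of 10 µM bortezomib, but other members made them up. In cantharidin, pals-23 and pals-24 together gave 47.5% to 53.1% of the sum, against 18.1% to 18.3% in 10 µM bortezomib and 1.27% to 1.62% after rpn-6 RNAi. Controls had 10 to 13 members at 1 FPKM or more, while 36 members reached it in each rpn-6 RNAi and each 25 µM bortezomib library. In bulk RNA, more cells of a kind and more RNA per cell cannot be told apart.

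**Figure D1:**
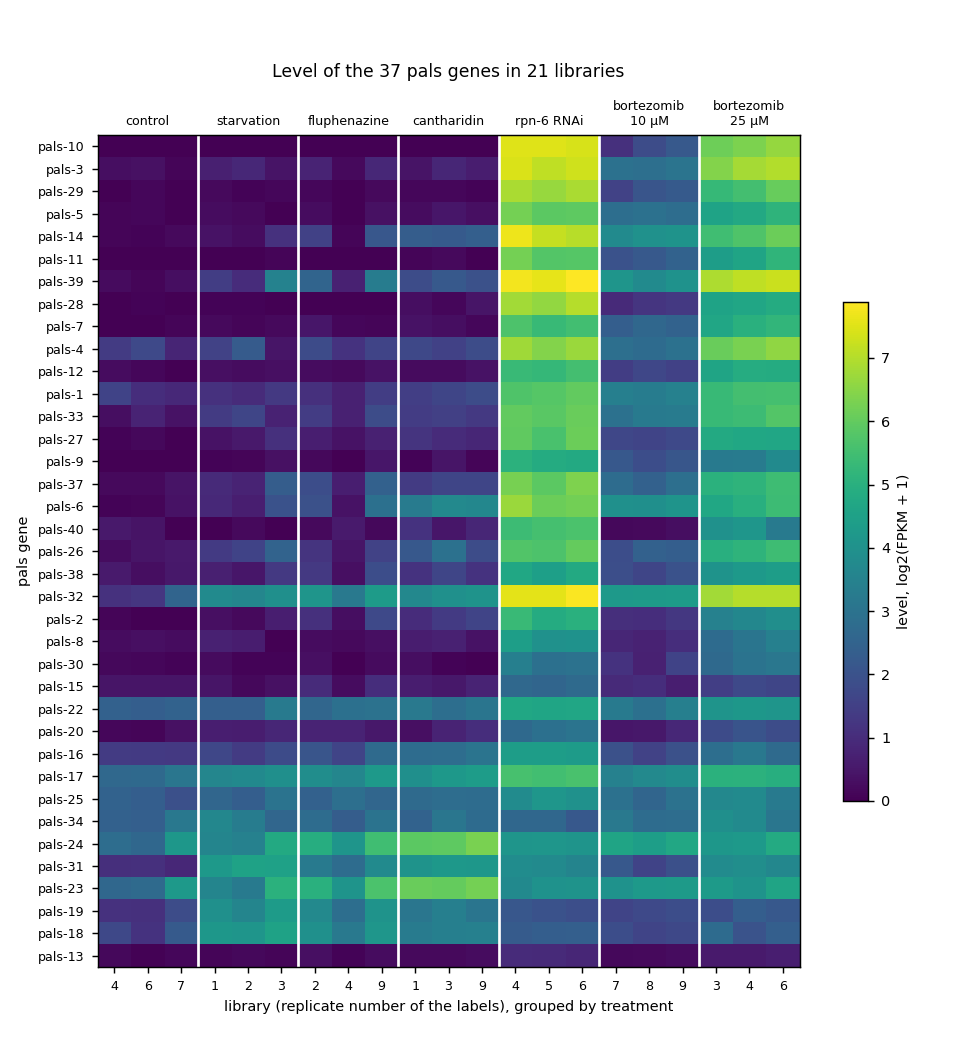
Heat map of log2(FPKM + 1) for the 37 pals genes (rows) in the 21 libraries (columns, grouped by treatment), with rows ordered by the difference between the proteasome groups and the other 3 stresses and the untested pals-13 last. Brighter colours are higher levels. Most rows are dark in controls and brightest after rpn-6 RNAi, with 25 µM bortezomib next. The rows of pals-18, pals-19, pals-23, pals-24 and pals-31 are brighter in starvation, fluphenazine or cantharidin.

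Each treatment was compared with control in a single limma fit over all 17492 genes that passed the filter, on log2(FPKM + 1), with calls at a Benjamini-Hochberg adjusted p under 0.05. Differences on this scale understate the change of genes with low values. After rpn-6 RNAi, 31 of the 37 members (83.8%) rose, and 27.9% of all tested genes did. In 25 µM bortezomib 35 members rose (94.6%, background 42.3%), and in 10 µM bortezomib 26 did (70.3%, background 9.61%). In cantharidin 19 members rose (51.4%, background 31.9%). In fluphenazine 16 members rose (43.2%, background 34.4%), and in starvation 11 (29.7%, background 39.1%), shares close to or under that of all genes. No member was called lower in any of the 6 comparisons, while 8.81% of all tested genes fell after rpn-6 RNAi, 3.24% at the lower and 11.1% at the higher dose of bortezomib, 5.96% in cantharidin, 9.39% in fluphenazine and 18.4% in starvation. Because 24 members were under 1 FPKM in every control, they had little room to fall on this scale. The absence of falls is therefore no result about them. The median difference of the 36 tested members, given as a description, was 5.14 after rpn-6 RNAi, 1.40 at the lower and 4.04 at the higher dose of bortezomib, 0.56 in cantharidin, 0.45 in fluphenazine and 0.39 in starvation. Median differences of all tested genes were 0.16 to 0.40 above control on this scale, so a small rise of a member lies within the shift of all genes. Rescaling by median of ratios brought those medians to between -0.05 and 0.10, and quantile normalization to between -0.14 and -0.01. The share of all calls that were higher, 68.0% to 84.3% as deposited, was then 38.3% to 52.4% and 37.8% to 46.1%. Under quantile normalization the members called higher and lower numbered 6 and 3 in starvation, 7 and 3 in fluphenazine, 12 and 2 in cantharidin, and 31 and 1 after rpn-6 RNAi. The fluphenazine count fell to 7 without fluphenazine 9, and with only the compared groups in the fit it was 5, against 6 for starvation.

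The order of the groups was shared by most members. In 27 members every rpn-6 RNAi library lay above every 25 µM bortezomib library, these above every 10 µM library, and these above every control, an order that 2.31% of all tested genes had. Of the 37 members, 25 were called higher than control in all 3 proteasome groups, against 6.44% of tested genes. In 31 members the highest group mean was that of rpn-6 RNAi, and the share of all tested genes highest in that group was not counted. Among 30 of these members, leaving out the silent pals-13, the mean in 25 µM bortezomib was 22.3% (pals-28) to 87.3% (pals-30) of that after rpn-6 RNAi, with a median of 48.0%. The mean in 10 µM bortezomib was 0.349% (pals-40) to 41.5% (pals-25) of it, with a median of 8.77%. Between the doses, 30 members were higher at 25 µM (81.1%, background 27.2%). Against rpn-6 RNAi, 31 members were lower in 10 µM bortezomib (83.8%, background 17.4%) and 18 were lower in 25 µM bortezomib (48.6%, background 8.01%). Of the 19 calls of the latter comparison in either direction, 5 held in all alternatives run, and with a pseudocount of 0.1 there were 11 calls. RNAi and drug also differed in the stage at which exposure began, L3 and L4. Of 24 members under 1 FPKM in every control library, pals-9, pals-10 and pals-11 were listed at 0 in all 3.

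**Figure D2:**
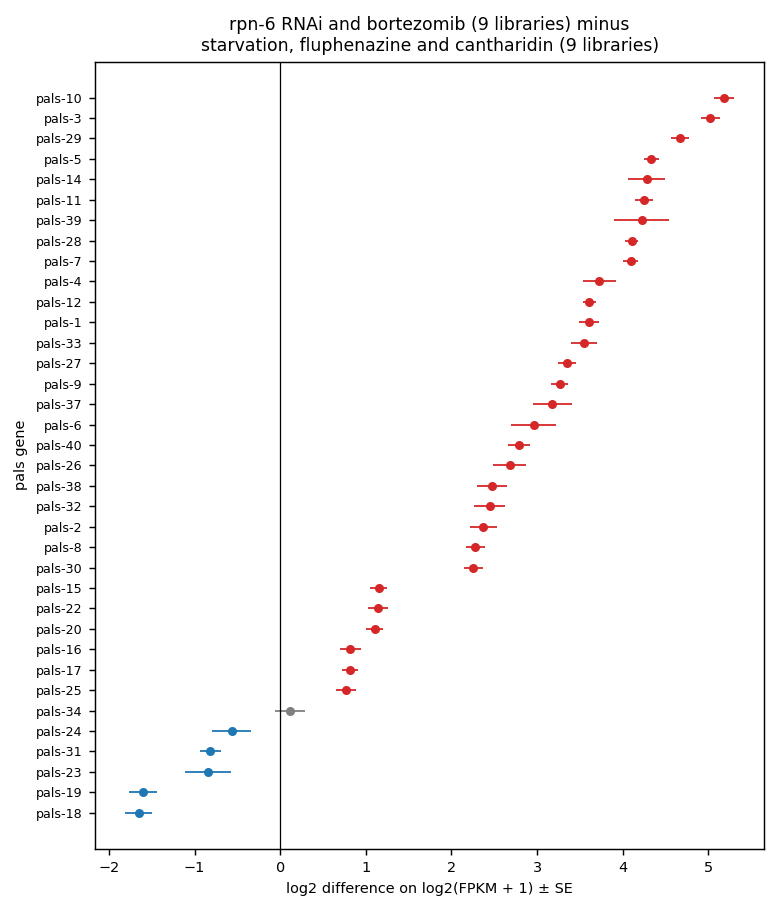
Log2 differences (± SE, limma on log2(FPKM + 1)) of the 36 tested pals genes between the mean of the 3 proteasome groups and the mean of starvation, fluphenazine and cantharidin, with red for called higher, blue for called lower and grey for not called. The 30 higher members spread over several log2 units to the right of 0, and the 5 lower ones are pals-18, pals-19, pals-23, pals-24 and pals-31.

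The regulators pals-22 and pals-25, which lie next to each other on chromosome III, were expressed in every library and rose after rpn-6 RNAi and in 25 µM bortezomib. For pals-22, the repressor, controls held 4.43, 4.16 and 4.61 FPKM, starved worms 4.23, 4.22 and 8.26, fluphenazine 5.13, 6.59 and 6.89 and cantharidin 8.19, 6.28 and 7.36. It stood at 25.2, 23.8 and 24.7 after rpn-6 RNAi, at 8.397, 6.46 and 9.62 in 10 µM bortezomib and at 15.8, 16.99 and 16.2 in 25 µM bortezomib. The rpn-6 RNAi libraries were the highest and the 25 µM libraries next, with no overlap, while 10 µM bortezomib overlapped starvation, fluphenazine and cantharidin. Against control, pals-22 rose by 2.24 ± 0.19 (adjusted p = 1.01e-07) after rpn-6 RNAi and by 1.68 ± 0.19 (adjusted p = 2.89e-06) in 25 µM bortezomib. Its smaller rises in 10 µM bortezomib, 0.75 ± 0.19 (adjusted p = 0.0191), and cantharidin, 0.61 ± 0.19 (adjusted p = 0.02201), were lost under median-of-ratios scaling, and the cantharidin value turned to -0.34 under quantile normalization, which also ended the 25 µM call at 0.65.

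The activator pals-25 stood at 4.53, 4.16 and 2.84 FPKM in controls, 5.07, 4.09 and 7.02 in starvation, 4.42, 6.31 and 5.06 in fluphenazine and 5.59, 6.07 and 5.92 in cantharidin. After rpn-6 RNAi it reached 12.9, 16.5 and 15.1, in 10 µM bortezomib 6.69, 4.897 and 6.86 and in 25 µM bortezomib 11.8, 12.7 and 8.35. The rpn-6 RNAi libraries were above all others, with 25 µM bortezomib next, and those of 10 µM bortezomib overlapped starvation, fluphenazine and cantharidin. It rose by 1.72 ± 0.20 (adjusted p = 3.95e-06) after rpn-6 RNAi and by 1.30 ± 0.20 (adjusted p = 7.04e-05) in 25 µM bortezomib, while its difference in 10 µM bortezomib was 0.57 ± 0.20 (adjusted p = 0.0787). The 25 µM call was lost under quantile normalization, at 0.27. In the deposited values, the ratio of pals-22 to pals-25 ran from 0.835 to 1.96 over all 21 libraries. It was 0.977 to 1.62 in controls (median 0.999) and 1.44 to 1.96 after rpn-6 RNAi (median 1.64). In 25 µM bortezomib it was 1.34 to 1.94 (median 1.34), and differences in the ratio were not tested.

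A further set of regulators lies in another stretch of chromosome III, where pals-17 is known to hold the response back and pals-16 and pals-20 to promote it. The repressor pals-17 stood at 5.402, 5.42 and 7.496 FPKM in controls, 11.3, 12.5 and 14.1 in starvation, 13.5, 11.2 and 17.7 in fluphenazine and 14.4, 17.5 and 19.4 in cantharidin. It reached 47.1, 44.4 and 48.9 after rpn-6 RNAi, 10.1, 12.2 and 13.5 in 10 µM bortezomib and 31.6, 32.7 and 30.2 in 25 µM bortezomib. Every treated library lay above every control, and 10 µM bortezomib overlapped starvation and fluphenazine but lay below cantharidin. It was called higher in all 6 comparisons, by 2.76 ± 0.16 (adjusted p = 1.04e-09) after rpn-6 RNAi, 2.21 ± 0.16 in 25 µM bortezomib and 0.87 ± 0.16 in 10 µM bortezomib. In starvation, fluphenazine and cantharidin the rises were 0.95 ± 0.16, 1.08 ± 0.16 and 1.35 ± 0.16. Quantile normalization ended the calls in starvation, fluphenazine and 10 µM bortezomib.

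The gene pals-16 gave 1.59, 1.54 and 1.48 FPKM in controls, 2.22, 1.59 and 2.47 in starvation, 3.25, 2.05 and 5.603 in fluphenazine and 5.903, 6.01 and 7.25 in cantharidin. Levels were 20.2, 19.9 and 18.99 after rpn-6 RNAi, 2.86, 1.96 and 2.87 in 10 µM bortezomib and 6.15, 7.94 and 5.61 in 25 µM bortezomib. The rpn-6 RNAi libraries stood alone at the top, and cantharidin and 25 µM bortezomib overlapped. Rises of 3.03 ± 0.22 (adjusted p = 1.27e-08) after rpn-6 RNAi, 1.56 ± 0.22 (adjusted p = 2.46e-05) in 25 µM bortezomib and 1.54 ± 0.22 (adjusted p = 5.51e-05) in cantharidin were called, while 10 µM bortezomib gave 0.48 ± 0.22 (adjusted p = 0.166). The fluphenazine rise of 0.80 ± 0.22 (adjusted p = 0.00961) turned to -0.15 under quantile normalization and lost its call without fluphenazine 9 and with only the compared groups in the fit.

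In the same stretch of chromosome III, pals-20 was low outside rpn-6 RNAi and 25 µM bortezomib. It held 0.0972, 0.0704 and 0.284 FPKM in controls, 0.584, 0.556 and 0.7896 in starvation, 0.708, 0.707 and 0.421 in fluphenazine and 0.255, 0.728 and 1.03 in cantharidin. It stood at 5.51, 6.59 and 7.28 after rpn-6 RNAi, 0.398, 0.433 and 0.832 in 10 µM bortezomib and 2.53, 3.11 and 2.56 in 25 µM bortezomib. The rpn-6 RNAi and 25 µM libraries were above all others and apart from each other. The rises were 2.69 ± 0.17 (adjusted p = 2.94e-09) after rpn-6 RNAi and 1.70 ± 0.17 (adjusted p = 7.86e-07) in 25 µM bortezomib, and 10 µM bortezomib gave 0.43 ± 0.17 (adjusted p = 0.118). In starvation, fluphenazine and cantharidin it was called higher by 0.52 ± 0.17, 0.49 ± 0.17 and 0.52 ± 0.17, at levels near 1 FPKM or under it, and each of these calls was lost in at least 4 of the alternatives run. In the annotation it overlaps Y82E9BR.5 on the opposite strand, and its reads are uncertain because the use of strand in counting is not stated.

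The reporter gene pals-5 was close to off outside the proteasome groups. Controls held 0.0775, 0.112 and 0 FPKM, starved worms 0.1997, 0.148 and 0, fluphenazine 0.212, 0 and 0.269 and cantharidin 0.203, 0.387 and 0.247. After rpn-6 RNAi the values were 74.3, 58.8 and 60.02, in 10 µM bortezomib 6.28, 6.76 and 6.02 and in 25 µM bortezomib 22.6, 26.2 and 34.2. The 3 proteasome groups were apart from each other and from the rest, in the order rpn-6 RNAi, 25 µM and 10 µM. Against control, pals-5 rose by 5.94 ± 0.16 (adjusted p = 5.41e-14) after rpn-6 RNAi, by 4.74 ± 0.16 (adjusted p = 1.15e-12) in 25 µM bortezomib and by 2.79 ± 0.16 (adjusted p = 8.31e-09) in 10 µM bortezomib. Starvation, fluphenazine and cantharidin gave 0.07 ± 0.16, 0.12 ± 0.16 and 0.27 ± 0.16, none of them called.

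**Figure D3:**
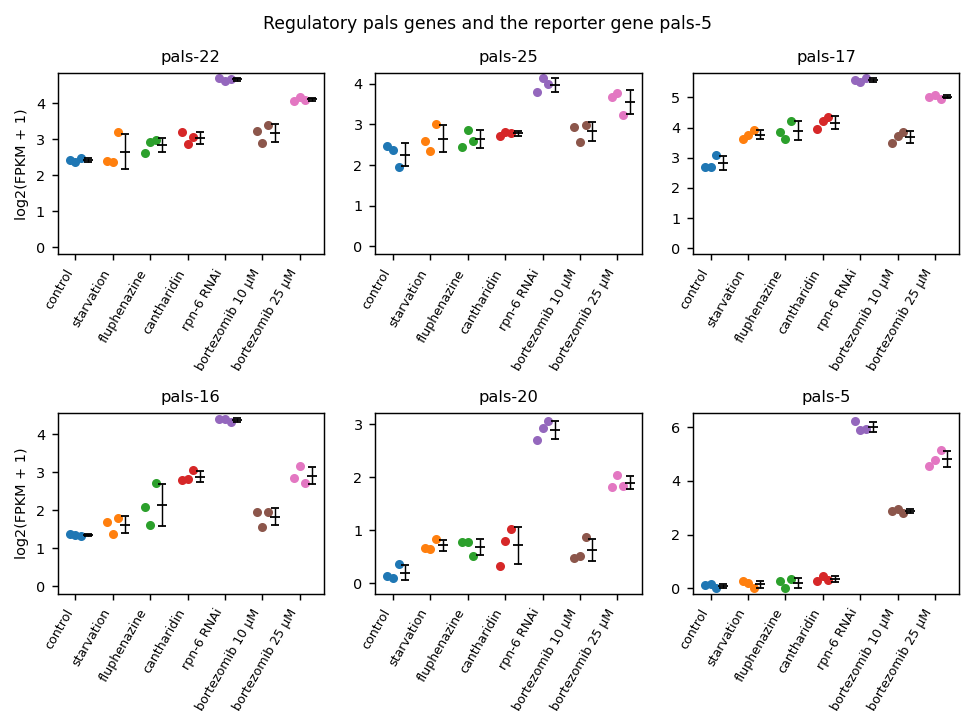
Dot plots of log2(FPKM + 1) for pals-22, pals-25, pals-17, pals-16, pals-20 and pals-5 in the 7 groups, with a dot for each library in order of its number and bars for the mean ± SD (n = 3). In each panel the rpn-6 RNAi libraries are the highest, and pals-5 stays near 0 outside the 3 proteasome groups.

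The 6 most abundant members had means of 112 to 215 FPKM after rpn-6 RNAi, and no individual role is known for them. The highest level was that of pals-39, with 215, 192 and 236 FPKM after rpn-6 RNAi, 16.2, 12.8 and 15.4 in 10 µM bortezomib and 119.5, 141 and 153 in 25 µM bortezomib. Its other values were 0.168, 0.0811 and 0.218 in controls, 1.68, 1.02 and 10.4 in starvation, 4.81, 0.641 and 8.91 in fluphenazine and 2.54, 3.64 and 2.92 in cantharidin. All treated libraries were above the controls, and the proteasome groups were above the other 3, with a wide spread inside starvation and fluphenazine. It rose by 7.54 ± 0.56 (adjusted p = 1.58e-08) after rpn-6 RNAi, 6.90 ± 0.56 (adjusted p = 5.17e-08) in 25 µM bortezomib and 3.77 ± 0.56 (adjusted p = 3.13e-04) in 10 µM bortezomib. The rises were 1.77 ± 0.56 (adjusted p = 0.0142) in starvation and 1.98 ± 0.56 (adjusted p = 0.0108) in fluphenazine. Their calls depended on a single library each, being lost at 1.01 without starvation 3 and at 1.42 without fluphenazine 9. The cantharidin rise was 1.80 ± 0.56 (adjusted p = 0.020), lost in 4 of the alternatives run.

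Several libraries stood apart from their groups in markers of the germ line and the epidermis. Members at an extreme of their group in the same libraries were counted. The summed level of 7 oocyte markers was 84.1 FPKM in starvation 3, against 475 and 761 in the other starved libraries, and that of 7 sperm markers was 46.5 against 528 and 576. In fluphenazine 4 the oocyte sum was 2565, against 741 and 428, and in control 7 it was 1566, against 2841 and 2798. The sperm sum of control 7 was 297 FPKM, against 65.9 and 79.6 in the other controls. Among epidermal collagens, dpy-7 stood at 18.1, 6.72 and 223 FPKM in the starved libraries, rol-6 at 87.7, 28.4 and 489 and the adult collagen col-19 at 1647, 1689.6 and 135, so that starvation 3 was the highest for the first pair and the lowest for col-19. No oocyte, sperm, intestine or epidermis marker was listed at 0 in all 3 libraries of a group. Of the 37 members, starvation 3 was the highest starved library for 23, among them pals-39, pals-6, pals-23 and pals-24, and the lowest for 9, among them pals-3, pals-4, pals-33 and pals-34. Fluphenazine 4 was the lowest of its group for 29 members and the highest for 2. Control 7 was the highest control for 15, among them pals-23, pals-24, pals-18, pals-19 and pals-32, and the lowest for 12, among them pals-3, pals-4 and pals-25. Any gene has its highest value in 1 of the 3 libraries of a group, and the counts of control 7 are near an even split. The shares of all genes with these extremes were not counted, so the counts are a description of the members only. The oocyte sums of rpn-6 RNAi ran from 1867 to 2347, those of 10 µM bortezomib from 2667 to 2868 and those of 25 µM bortezomib from 719 to 1326. All 7 sperm markers were called higher in 25 µM bortezomib, with sums of 484 to 555 FPKM against 65.9 to 297 in controls, 1 in 10 µM bortezomib and 0 after rpn-6 RNAi. Without control 7 the members called higher numbered 35 in rpn-6 RNAi, 27 at the lower and 36 at the higher bortezomib dose, 18 in cantharidin, 15 in fluphenazine and 14 in starvation. Without starvation 3 the starvation count was 9, and without fluphenazine 4 the fluphenazine count was 19. The part of the germ line and the epidermis in these differences was not tested.

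A few markers of the intestine, a main site of the response, also differed between the proteasome groups and controls. Of 6 intestine markers, 1 rose and 1 fell after rpn-6 RNAi, 2 rose and 1 fell in 25 µM bortezomib, and 1 rose in 10 µM bortezomib. The shares that rose were 16.7%, 33.3% and 16.7%, against 27.9%, 42.3% and 9.61% of all tested genes. Backgrounds for a fall were 8.81%, 11.1% and 3.24%, and with so few markers the counts are a description only. The gut esterase gene ges-1 stood at 15.3, 16.4 and 19.6 FPKM in controls, 2.47, 2.12 and 1.5 after rpn-6 RNAi, 11.3, 11.5 and 10.5 in 10 µM bortezomib and 1.74, 1.71 and 1.24 in 25 µM bortezomib. It fell by 2.59 ± 0.21 after rpn-6 RNAi (adjusted p = 3.63e-08) and by 2.82 ± 0.21 in 25 µM bortezomib (adjusted p = 1.50e-08), with no overlap with the controls in either. In starvation and fluphenazine ges-1 was called higher, by 1.18 ± 0.21 (adjusted p = 2.15e-04) and 1.24 ± 0.21 (adjusted p = 2.00e-04). The intestinal GATA factor gene elt-2 rose in all 3 groups, by 0.84 ± 0.22 (adjusted p = 0.00554) after rpn-6 RNAi, 0.88 ± 0.22 (adjusted p = 0.0139) in 10 µM bortezomib and 1.63 ± 0.22 (adjusted p = 1.32e-05) in 25 µM bortezomib. The proton pump subunit gene vha-6 stood at 147, 156 and 200 FPKM in controls and at 37.3, 37.8 and 30.3 after rpn-6 RNAi. In 25 µM bortezomib it held 71.7, 62.7 and 62.2, and neither group overlapped the controls. Its differences, -2.22 ± 1.27 (adjusted p = 0.199) and -1.33 ± 1.27 (adjusted p = 0.3896) in the same order, missed the threshold. The fit pools the spread of all groups, and vha-6 was listed at 0 in cantharidin 3 and 9, against 186 in cantharidin 1. Summed over the 6 markers, controls held 473 to 655 FPKM, rpn-6 RNAi 533 to 645 and 25 µM bortezomib 400.5 to 949.6. These sums depend on act-5, listed at 0 in control 7 and in 25 µM libraries 4 and 6. It stood at 306 and 387 in controls 4 and 6 and at 561 in 25 µM library 3. Such a 0 can be a failed estimate, so the ranges are uncertain. Of 6 epidermis markers, 2 rose after rpn-6 RNAi and 2 in 25 µM bortezomib, 33.3% in each, against the same backgrounds of 27.9% and 42.3%. The part of the intestine and the epidermis in the pals differences was not tested.

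Second in level was pals-32, at 189, 187 and 228 FPKM after rpn-6 RNAi, 18.3, 18.8 and 19.1 in 10 µM bortezomib and 111, 127 and 129 in 25 µM bortezomib. Controls held 1.19, 1.397 and 4.85, starvation 12.8, 11.4 and 14.2, fluphenazine 16.3, 8.102 and 19.3 and cantharidin 11.9, 14.5 and 15.6. Every treated library was above every control, and the lowest proteasome group, 10 µM bortezomib, overlapped fluphenazine. It rose in all 6 comparisons, from 2.14 ± 0.31 (adjusted p = 3.76e-05) in starvation to 6.01 ± 0.31 (adjusted p = 1.74e-10) after rpn-6 RNAi. Fluphenazine gave 2.23 ± 0.31, cantharidin 2.25 ± 0.31, 10 µM bortezomib 2.66 ± 0.31 and 25 µM bortezomib 5.29 ± 0.31. The annotation places str-46 over it on the opposite strand, so its reads too are uncertain.

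All 12 libraries of control, starvation, fluphenazine and cantharidin listed pals-10 at 0. It stood at 180.2, 181 and 169 FPKM after rpn-6 RNAi, 1.13, 2.597 and 3.59 in 10 µM bortezomib and 69.3, 78.9 and 98.1 in 25 µM bortezomib. The 3 proteasome groups did not overlap. No fold against a group listed at 0 is given, and on the log2(FPKM + 1) scale the differences from control were 7.47 ± 0.20 (adjusted p = 6.27e-14) after rpn-6 RNAi, 1.71 ± 0.20 (adjusted p = 3.12e-05) in 10 µM bortezomib and 6.36 ± 0.20 (adjusted p = 6.75e-13) in 25 µM bortezomib. The 25 µM dose was 4.65 ± 0.20 above the 10 µM dose, also called.

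Like pals-10, pals-3 lies in the large group of pals genes on chromosome I, and it stood at 174, 139.6 and 158.4 FPKM after rpn-6 RNAi, 6.65, 6.43 and 7.25 in 10 µM bortezomib and 84.1, 113 and 125 in 25 µM bortezomib. Its other libraries held 0.221, 0.267 and 0.0719 in controls, 0.634, 0.845 and 0.333 in starvation, 0.7402, 0.154 and 0.833 in fluphenazine and 0.322, 0.799 and 0.549 in cantharidin. None of these 12 libraries reached 1 FPKM, and the proteasome groups did not overlap. The rises were 7.06 ± 0.20 (adjusted p = 8.18e-14), 2.71 ± 0.20 (adjusted p = 1.83e-07) and 6.50 ± 0.20 (adjusted p = 3.64e-13) in the same order of groups. In the annotation pals-3 overlaps pals-12 on the same strand and pals-4 on the opposite strand, and the authors' counting could split reads among them.

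A neighbour of pals-5 and pals-6, pals-14 had values of 203, 147 and 130.1 FPKM after rpn-6 RNAi, 12.6, 14.8 and 15.7 in 10 µM bortezomib and 43.1, 51.9 and 69.1 in 25 µM bortezomib. Controls held 0.07195, 0.0521 and 0.1403, starvation 0.309, 0.206 and 1.17, fluphenazine 1.903, 0.0748 and 3.44 and cantharidin 4.02, 3.66 and 4.28. Cantharidin lay above every control and below every 10 µM bortezomib library, while fluphenazine 4 was among the controls. It rose by 7.18 ± 0.37 (adjusted p = 2.03e-10), 3.81 ± 0.37 (adjusted p = 4.27e-06) and 5.65 ± 0.37 (adjusted p = 4.42e-09) in the proteasome groups and by 2.19 ± 0.37 (adjusted p = 2.58e-04) in cantharidin. The fluphenazine rise of 1.14 ± 0.37 (adjusted p = 0.0221) was lost in 5 of the alternatives run, among them quantile normalization.

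For pals-6 the 3 proteasome groups gave 103, 68.2 and 72.7 FPKM after rpn-6 RNAi, 14.6, 14.3 and 15.9 in 10 µM bortezomib and 25.03, 30.7 and 41.2 in 25 µM bortezomib. It stood at 0.0611, 0.0885 and 0.298 in controls, 0.892, 0.583 and 2.93 in starvation, 2.84, 0.318 and 6.59 in fluphenazine and 8.64, 12.02 and 11.6 in cantharidin. Unlike those of pals-5, its cantharidin values were close to those of 10 µM bortezomib, though below them. The rises were 6.15 ± 0.46 (adjusted p = 1.58e-08) after rpn-6 RNAi, 4.84 ± 0.46 (adjusted p = 3.11e-07) in 25 µM bortezomib, 3.80 ± 0.46 (adjusted p = 3.65e-05) in 10 µM bortezomib and 3.35 ± 0.46 (adjusted p = 3.29e-05) in cantharidin. Its fluphenazine rise of 1.56 ± 0.46 (adjusted p = 0.0129) was lost without fluphenazine 9, at 0.98, and under quantile normalization, at 0.92.

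At the higher dose pals-28 had the lowest share of its rpn-6 RNAi level. It stood at 111, 96.1 and 129 FPKM after rpn-6 RNAi but at 0.919, 1.35 and 1.46 in 10 µM bortezomib and 22.7, 24.5 and 27.8 in 25 µM bortezomib. Other values were 0, 0.0478 and 0 in controls, 0.0567, 0.0629 and 0 in starvation, 0, 0 and 0 in fluphenazine and 0.2304, 0.1100 and 0.3504 in cantharidin. The 3 proteasome groups were apart from each other and from all other libraries. Against control it rose by 6.79 ± 0.14 (adjusted p = 4.13e-15), 1.13 ± 0.14 (adjusted p = 4.32e-05) and 4.67 ± 0.14 (adjusted p = 3.28e-13) in the same order of groups. The 25 µM libraries were lower than those of rpn-6 RNAi by 2.12 ± 0.14 (adjusted p = 7.06e-08). An extreme of another kind, named after its values were seen, was pals-40, with 0.125, 0.138 and 0.2197 FPKM in 10 µM bortezomib against 0.461, 0.334 and 0 in controls. It was not called there (-0.11 ± 0.23), yet it rose by 3.47 ± 0.23 (adjusted p = 4.13e-09) in 25 µM bortezomib and by 5.23 ± 0.23 (adjusted p = 2.14e-11) after rpn-6 RNAi.

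**Figure D4:**
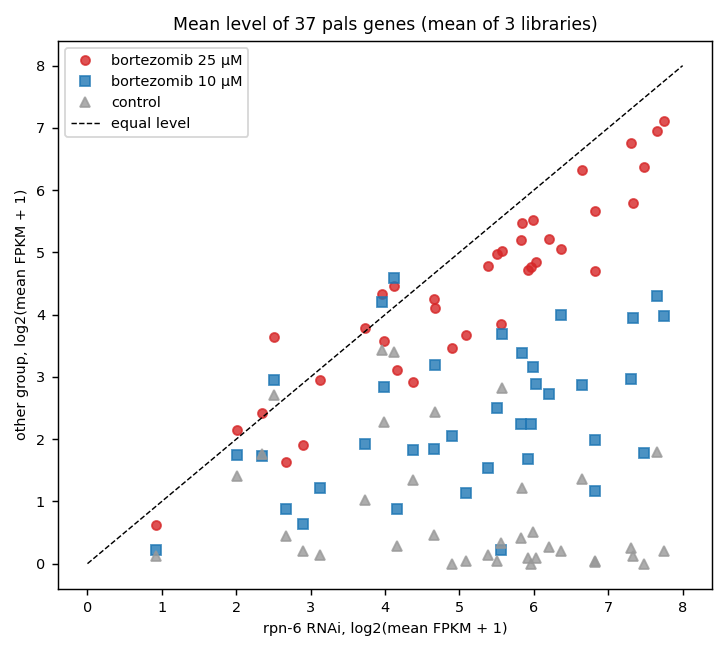
Scatter plot of mean levels, log2(mean FPKM + 1) over 3 libraries, with rpn-6 RNAi on the x axis, another group on the y axis and a dashed line for equal level, where each dot is a pals gene. Most 25 µM bortezomib dots lie a little under the line and those of 10 µM bortezomib well under it, and the median 25 µM mean among the 30 members highest after rpn-6 RNAi was 48.0% of the rpn-6 RNAi mean.

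The remaining 5 members named here were called lower in the mean of the 3 proteasome groups than in that of the other 3 stresses. No individual role is known for them. Among them, pals-31 was still called higher than control in all 3 proteasome groups. In the contrast of the 3 proteasome groups with the other 3 stresses, 30 of 37 members were higher (81.1%, background 28.5%) and 5 were lower (13.5%, background 27.8%). Several of the 30, pals-10 among them, reached 1 FPKM only in proteasome libraries and could hardly be called lower. Of the 10 members with at least 1 FPKM in every control, 5 were higher and 4 lower. The share of all genes with that control level was not counted for this contrast. The 5 lower members of the whole family were pals-18, pals-19, pals-23, pals-24 and pals-31. The call of pals-24 was lost in 18 of the alternatives run, and those of pals-23 and pals-31 were lost with the library number as a replicate block, while the other 32 calls held in every alternative run.

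Starvation gave the highest mean of pals-18, at 17.2, 16.2 and 22.2 FPKM against 2.25, 1.24 and 3.69 in controls. It stood at 14.4, 8.14 and 16.9 in fluphenazine and 8.73, 9.59 and 9.83 in cantharidin. After rpn-6 RNAi the values were 3.84, 4.17 and 4.19, in 10 µM bortezomib 2.65, 2.08 and 2.24 and in 25 µM bortezomib 5.76, 3.02 and 4.205. Starvation, fluphenazine and cantharidin lay above every proteasome library. The rises were 2.58 ± 0.27 (adjusted p = 1.31e-06) in starvation, 2.07 ± 0.27 (adjusted p = 1.79e-05) in fluphenazine and 1.68 ± 0.27 (adjusted p = 1.46e-04) in cantharidin. In rpn-6 RNAi the difference was 0.64 ± 0.27 (adjusted p = 0.0718) and in 10 µM bortezomib 0.03 ± 0.27, neither called, while the call in 25 µM bortezomib, 0.68 ± 0.27 (adjusted p = 0.0407), was lost in 8 alternatives and the value turned to -0.31 under quantile normalization.

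Its neighbour pals-19 overlaps it on the same strand, so the authors' counting could split reads between them, and the ratio of pals-18 to pals-19 stayed between 0.729 and 2.18 over the 21 libraries. It stood at 14.6, 11.1 and 19.3 FPKM in starvation, 12.02, 6.25 and 15.7 in fluphenazine and 7.48, 9.51 and 7.38 in cantharidin. Controls held 1.203, 1.13 and 2.58, rpn-6 RNAi 3.37, 2.99 and 2.69, 10 µM bortezomib 2.06, 2.36 and 2.66 and 25 µM bortezomib 2.64, 4.14 and 3.52. As with pals-18, the 3 stresses other than proteasome impairment lay above all proteasome libraries. It rose by 2.61 ± 0.28 (adjusted p = 1.74e-06) in starvation, 2.18 ± 0.28 (adjusted p = 1.57e-05) in fluphenazine and 1.82 ± 0.28 (adjusted p = 9.71e-05) in cantharidin. In 25 µM bortezomib its call, 0.78 ± 0.28 (adjusted p = 0.0273), was lost in 7 alternatives and the value was -0.18 under quantile normalization, and rpn-6 RNAi gave 0.64 ± 0.28 (adjusted p = 0.0832).

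On chromosome V, pals-31 stood at 1.08, 1.15 and 0.842 FPKM in controls, 18.2, 22.3 and 21.8 in starvation, 8.24, 5.96 and 12.8 in fluphenazine and 15.7, 17.6 and 17.03 in cantharidin. Values were 13.2, 12.8 and 10.7 after rpn-6 RNAi, 3.52, 2.03 and 2.82 in 10 µM bortezomib and 12.9, 13.8 and 11.7 in 25 µM bortezomib. All treated libraries were above the controls, starvation was the highest group, and rpn-6 RNAi and 25 µM bortezomib overlapped. The rises were 3.43 ± 0.20 (adjusted p = 3.92e-09) in starvation, 3.14 ± 0.20 (adjusted p = 1.92e-08) in cantharidin, 2.77 ± 0.20 in 25 µM bortezomib, 2.71 ± 0.20 after rpn-6 RNAi and 2.25 ± 0.20 in fluphenazine. The smallest, 0.89 ± 0.20 (adjusted p = 0.00879) in 10 µM bortezomib, was lost without 10 µM library 7, at 0.75, and under quantile normalization, at 0.55.

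Cantharidin gave the highest level of pals-23, at 67.3, 64.2 and 74.2 FPKM, with 5.26, 5.69 and 18.3 in controls, 10.99, 8.57 and 31.8 in starvation and 31.1, 15.9 and 49.8 in fluphenazine. In rpn-6 RNAi it stood at 12.5, 15.4 and 15.7, in 10 µM bortezomib at 15.4, 18.2 and 18.5 and in 25 µM bortezomib at 18.7, 15.5 and 23.4. The cantharidin libraries were above all others, while control 7 lay within the range of the proteasome groups. Calls were made in cantharidin, 2.90 ± 0.46 (adjusted p = 1.44e-04), and in fluphenazine, 1.70 ± 0.46 (adjusted p = 0.00842), the latter lost without fluphenazine 9 at 1.32, under quantile normalization at 1.16 and with only the compared groups in the fit. The values in rpn-6 RNAi, 10 µM and 25 µM bortezomib were 0.73 ± 0.46, 0.98 ± 0.46 and 1.10 ± 0.46, none called.

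Next to it, pals-24 stood at 58.9, 60.3 and 77.9 FPKM in cantharidin, 6.12, 5.24 and 17.2 in controls, 11.1, 10.2 and 26.6 in starvation and 29.4, 16.5 and 42.98 in fluphenazine. After rpn-6 RNAi it held 16.4, 16.6 and 16.04, in 10 µM bortezomib 23.4, 20.4 and 25.6 and in 25 µM bortezomib 17.1, 18.3 and 27.5. Again the cantharidin libraries were above all others, and the ratio of pals-23 to pals-24 stayed between 0.657 and 1.20 over the 21 libraries. It rose by 2.83 ± 0.40 (adjusted p = 4.72e-05) in cantharidin and by 1.62 ± 0.40 (adjusted p = 0.00468) in fluphenazine, the latter lost with only the compared groups in the fit. The smaller calls, 1.37 ± 0.40 (adjusted p = 0.0338) in 10 µM bortezomib and 1.21 ± 0.40 (adjusted p = 0.0183) in 25 µM bortezomib, were lost under median-of-ratios scaling, and rpn-6 RNAi gave 0.90 ± 0.40 (adjusted p = 0.0928). In the annotation C29F9.12 overlaps it on the opposite strand.

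The last member with its highest mean outside rpn-6 RNAi, named after its values were seen, was pals-34. It stood at 4.44, 4.21 and 7.998 FPKM in controls and 5.23, 5.26 and 3.498 after rpn-6 RNAi, against 14.3, 12.8 and 7.504 in 25 µM bortezomib. The 25 µM libraries overlapped the controls but lay above those of rpn-6 RNAi, and it was the single member called higher in 25 µM bortezomib than after rpn-6 RNAi (2.70% of members, background 14.1%), by 1.12 ± 0.30 (adjusted p = 0.0177). That call was lost in 4 of the alternatives run.

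**Figure D5:**
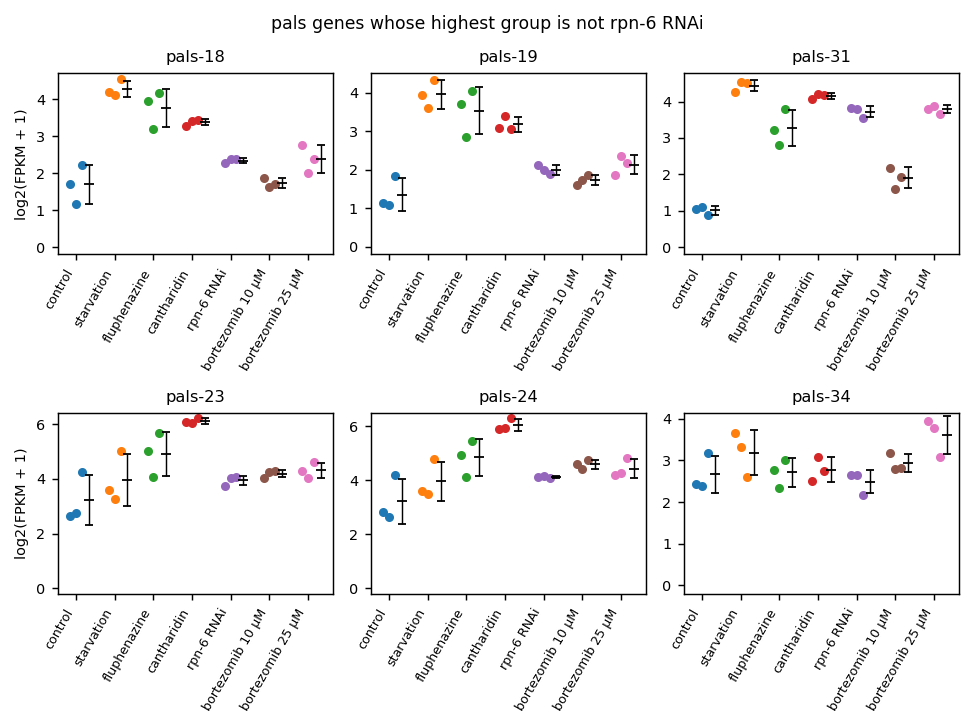
Dot plots of log2(FPKM + 1) for pals-18, pals-19, pals-31, pals-23, pals-24 and pals-34 in the 7 groups, with a dot for each library in order of its number and bars for the mean ± SD (n = 3). Starvation has the highest mean for pals-18, pals-19 and pals-31, with fluphenazine libraries overlapping it for the first pair, the cantharidin libraries are above all others for pals-23 and pals-24, and the groups of pals-34 mostly overlap.

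Members already expressed in controls were counted apart from those near 0. Of the 37, 10 had at least 1 FPKM in every control library, namely pals-16, pals-17, pals-18, pals-19, pals-22, pals-23, pals-24, pals-25, pals-32 and pals-34. Of these, 8 rose in cantharidin and 7 in fluphenazine, where 28.7% and 29.4% of the 12655 tested genes with the same control level did. After rpn-6 RNAi 5 of the 10 rose (background 28%), in 25 µM bortezomib 9 (background 39.3%), in 10 µM bortezomib 4 (background 9.42%) and in starvation 4 (background 34.9%). Many of these calls were lost in some alternative. They were pals-18, pals-19, pals-22, pals-24, pals-25 and pals-34 in 25 µM bortezomib and pals-17, pals-22 and pals-24 in 10 µM bortezomib. Lost too were pals-16, pals-17, pals-23 and pals-24 in fluphenazine, pals-22 in cantharidin and pals-17 in starvation, but none after rpn-6 RNAi. All treatments had every library above every control in 8 of the 37 members, pals-2, pals-6, pals-17, pals-27, pals-31, pals-32, pals-37 and pals-39, against 7.87% of tested genes. Calls in all 6 comparisons were made for pals-17, pals-27, pals-31, pals-32, pals-33, pals-37 and pals-39, and 3.47% of tested genes had them.

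Neighbouring members mostly had the same highest group, with exceptions on chromosome III. Because 31 of the 37 members were highest after rpn-6 RNAi, such agreement would be common wherever the genes lay. It is no result about position. In the Ensembl annotation of WBcel235, from which only order and strand are used here, pals genes with at most 10 other coding genes between them form a group of 14 on chromosome I, from pals-13 to pals-15. All 14 were highest after rpn-6 RNAi, the silent pals-13 included, as was the lone pals-1. On chromosome III, pals-24, pals-23, pals-22 and pals-25 follow each other on the same strand, and the first pair was highest in cantharidin and the second after rpn-6 RNAi. In the stretch of pals-40, pals-20, pals-17, pals-16, pals-19 and pals-18, the last pair was highest in starvation and the others after rpn-6 RNAi. The neighbours pals-26, pals-27 and pals-28 on chromosome III, pals-29 and pals-30 on chromosome IV, and pals-37, pals-39 and pals-38 on chromosome V were all highest after rpn-6 RNAi.

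Other genes of the intracellular pathogen response also rose in the proteasome groups. Of 13 other genes of the response, all 13 rose after rpn-6 RNAi and in 25 µM bortezomib and 11 rose in 10 µM bortezomib. In cantharidin 7 rose and 1 fell, in fluphenazine 5 rose and 1 fell, and in starvation 2 rose and 2 fell. The shares of all tested genes called higher, which are the background for each list below, were 27.9% after rpn-6 RNAi, 42.3% in 25 µM bortezomib, 9.61% in 10 µM bortezomib, 31.9% in cantharidin, 34.4% in fluphenazine and 39.1% in starvation. In the same order, 8.81%, 11.1%, 3.24%, 5.96%, 9.39% and 18.4% were called lower. The share of the response list that rose was 38.5% in fluphenazine, near that background, 53.8% in cantharidin and 15.4% in starvation, below it. Their median difference was 6.63 after rpn-6 RNAi and 0.04 in starvation, where the medians of all tested genes were 0.31 and 0.38. The response gene eol-1, named for enhanced olfactory learning, stood at 0.497, 0.6605 and 0.242 FPKM in controls, 0.569, 0.874 and 0.974 in starvation, 1.36, 0.776 and 2.37 in fluphenazine and 5.07, 3.87 and 7.21 in cantharidin. It reached 397, 344 and 335 after rpn-6 RNAi, 25.5, 33.8 and 32.5 in 10 µM bortezomib and 234, 275 and 248 in 25 µM bortezomib. The 3 proteasome groups were apart from each other in the family's order, with rises of 7.94 ± 0.22 (adjusted p = 7.06e-14), 4.43 ± 0.22 (adjusted p = 2.18e-09) and 7.44 ± 0.22 (adjusted p = 3.23e-13) in the sequence just given.

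The response also includes a cullin-based ubiquitin ligase, whose genes cul-6, skr-3, skr-4, skr-5, rcs-1, fbxa-75 and fbxa-158 were followed as a list of 7. All 7 rose after rpn-6 RNAi, in 25 µM bortezomib and in cantharidin, 6 in 10 µM bortezomib, 5 in starvation and 4 in fluphenazine. The last 2 counts are 71.4% and 57.1% of the list, against backgrounds of 39.1% and 34.4%. The cullin gene cul-6 stood at 1.81, 2.13 and 2.97 FPKM in controls, 3.58, 3.02 and 2.93 in starvation, 3.72, 2.51 and 4.83 in fluphenazine and 12.7, 12.7 and 16.9 in cantharidin. It held 29.8, 22.4 and 31.5 after rpn-6 RNAi, 5.58, 3.72 and 5.01 in 10 µM bortezomib and 17.2, 17.3 and 17.2 in 25 µM bortezomib. In contrast to pals-5, cul-6 was higher in cantharidin than in 10 µM bortezomib in every library. It rose by 3.13 ± 0.20 (adjusted p = 2.59e-09) after rpn-6 RNAi, 2.48 ± 0.20 (adjusted p = 4.85e-08) in 25 µM bortezomib and 2.20 ± 0.20 (adjusted p = 5.15e-07) in cantharidin.

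Known regulators outside the family were less uniform. These 5 genes were drh-1, a sensor of viral RNA, zip-1, a bZIP transcription factor that promotes the response, and pnp-1, lin-35 and sta-1, which hold it back. In rpn-6 RNAi 3 rose and 1 fell, in 25 µM bortezomib 4 rose, in 10 µM bortezomib, fluphenazine and cantharidin 3 rose each, and in starvation 3 rose and 2 fell. A count of 3 is 60% of the list, against backgrounds of 9.61% to 39.1% in those 5 comparisons, and with so few genes it is a description only. The activator zip-1 stood at 8.002, 8.35 and 9.15 FPKM in controls and at 49.1, 41.1 and 48.00 after rpn-6 RNAi, with no overlap, and rose in all 6 comparisons, by 0.95 ± 0.15 (cantharidin) to 2.31 ± 0.15 (adjusted p = 4.15e-09). The repressor pnp-1, a purine nucleoside phosphorylase, stood at 82.7, 81.7 and 114 FPKM in controls, 52.7, 45.5 and 44.8 after rpn-6 RNAi, 127, 125 and 115 in 10 µM bortezomib and 134, 133 and 112 in 25 µM bortezomib. In starvation it held 249, 283.8 and 239, in fluphenazine 294, 280.3 and 257 and in cantharidin 225, 228 and 184. These 9 libraries were the highest, its rpn-6 RNAi libraries were below every control, and its 10 µM bortezomib libraries lay just above the controls. After rpn-6 RNAi it fell by 0.93 ± 0.13 (adjusted p = 1.75e-05), while it rose by 0.46 ± 0.13 (adjusted p = 0.00664) in 25 µM bortezomib and by 1.58 ± 0.13 (adjusted p = 1.16e-07) in fluphenazine. Under median-of-ratios scaling its 25 µM value was 0.01, so that rise lies within the shift of all genes. Likewise, drh-1 was called higher in 25 µM bortezomib by 0.25 ± 0.10 (adjusted p = 0.0496) but had a value of -0.19 under median-of-ratios scaling and of -0.30 under quantile normalization.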

How the data were processed

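RNA of 21 whole-worm samples was sequenced from stranded TruSeq mRNA libraries, per the labels' protocols. The authors deposited FPKM values per gene. CASAVA and Cufflinks are named in the submitters' processing notes, and the aligner, genome build and read totals are not given in the sources used here. Groups came from the sample titles, in which the bortezomib labels were read as a library number followed by the dose. Gene names were joined by WormBase identifier (43200 of 46254 matched) to the Ensembl release 115 annotation.

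The 17492 genes that reached 1 FPKM in 3 or more libraries were tested on log2(FPKM + 1) with limma 3.58.1 in R 4.3.3 (lmFit, eBayes with trend), all 21 libraries in a single fit, with Benjamini-Hochberg adjustment over all tested genes. The fit had 14 residual and 2.01 prior degrees of freedom. It was tested on simulated data. Relative depth was estimated from the steps between low values. Exact 0 can be a failed estimate: 60 genes with a median over 20 FPKM had 154 values of 0 between them. No pals gene had so high a median over the libraries, so this check could not cover the family. Whether a 0 of a pals gene is a failed estimate was not tested.

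Members and gene lists were chosen with earlier results of these data known. Given with every library's value were pals-5, pals-16, pals-17, pals-20, pals-22 and pals-25, the 6 members with the highest group mean, and for each comparison with control the 4 called members that rose most and the 2 that fell most. The fixed list of response genes held sequence names of pals-26, pals-27 and pals-28, which were left out of it, leaving 13. The intestine marker opt-2 was not matched. Alternatives were another pseudocount, other filters, median-of-ratios and quantile scaling, fits of the compared groups only, a replicate block, and leaving out each library.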

Additional observations from a re-analysis of the deposited data

How the results depend on the processing

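Over 4831 values of single members under the alternatives, 4563 kept their side of the threshold and, where called, their direction, 193 lost a call, 65 gained 1 and 10 changed sign and were called in at least 1 of the fits. Signs also changed in 91 values called neither way. All 31 calls of rpn-6 RNAi against control and all 31 of 10 µM bortezomib against rpn-6 RNAi held in every alternative, as did 32 of 35 in the contrast of the proteasome groups with the other stresses, 29 of 35 in 25 µM bortezomib, 20 of 26 in 10 µM bortezomib and 25 of 30 between the doses. Fewer held in cantharidin (12 of 19), starvation (5 of 11), fluphenazine (4 of 16) and 25 µM bortezomib against rpn-6 RNAi (5 of 19). The count of 19 in that last comparison was 11 with a pseudocount of 0.1. The 16 calls in fluphenazine became 10 under quantile normalization, and with only the compared groups in the fit fluphenazine had 5 and starvation 6, the cause of each not being tested. The 10 sign changes all came under quantile normalization. Of these, 6 were called higher in the fit reported, namely pals-16 in fluphenazine (-0.15), pals-20 (-0.024) and pals-22 (-0.34) in cantharidin, and pals-18 (-0.31), pals-19 (-0.18) and pals-34 (-0.081) in 25 µM bortezomib. The other 4 were not called there and were called lower under quantile normalization, namely pals-16 in starvation (-0.51), pals-34 in fluphenazine (-0.85), and pals-15 (-0.47) and pals-34 (-0.82) in cantharidin. Leaving out each library gave 8 to 14 calls in starvation, 7 to 19 in fluphenazine (7 without fluphenazine 9), 14 to 18 in cantharidin, 31 to 35 after rpn-6 RNAi, 23 to 27 in 10 µM and 31 to 36 in 25 µM bortezomib. It gave 29 to 31 between the doses, 15 to 17 in 25 µM bortezomib against rpn-6 RNAi, 31 in 10 µM bortezomib against rpn-6 RNAi and 34 to 35 in the contrast of the proteasome groups with the other stresses.

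Deviations of same-numbered libraries correlated at -0.47 (fluphenazine 9 with cantharidin 9) to 0.54 (control 4 with fluphenazine 4) over 18 pairs, 2 of them over 0.1, so the numbers are not shown to pair the samples. For numbers 4 and 6, which recur in controls, rpn-6 RNAi and 25 µM bortezomib, the range within those groups was -0.26 to 0.05. With the number as a replicate block, 32 members were called in rpn-6 RNAi and 34 in 25 µM bortezomib against control, and 5 in 25 µM bortezomib against rpn-6 RNAi. A block fit of the contrast of the proteasome groups with the other stresses, chosen after seeing the data, called 32. No paired analysis was possible for the other comparisons because their groups share fewer than 2 numbers. FPKM hold no read totals, so the counting error behind values near 0 is unknown.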

Other observations

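In the annotation 10 other coding genes lie between neighbouring pals genes, and 8 of them passed the filter. After rpn-6 RNAi 4 of these rose, against 27.9% of all tested genes, which with so few genes is a description only. Those named here were chosen after their values were seen. The F-box gene fbxa-138, between pals genes on chromosome III, stood at 0.1701, 0.328 and 0.166 FPKM in controls, 19.9, 21.1 and 22.3 after rpn-6 RNAi and 5.79, 6.78 and 3.75 in 25 µM bortezomib, with no overlap between these groups. It rose by 4.18 ± 0.21 (adjusted p = 1.72e-10) after rpn-6 RNAi, by 2.37 ± 0.21 (adjusted p = 1.71e-07) in 25 µM bortezomib and by 2.24 ± 0.21 (adjusted p = 5.43e-07) in starvation, where it stood at 4.72, 6.01 and 3.74. On chromosome I, C17H1.2 overlaps the silent pals-13 on the same strand and stood at 0.358, 0.108 and 0.145 FPKM in controls, 9.83, 8.801 and 7.46 after rpn-6 RNAi and 4.16, 4.36 and 5.57 in 25 µM bortezomib, rising by 3.01 ± 0.21 (adjusted p = 9.00e-09) and 2.24 ± 0.21 (adjusted p = 3.43e-07). Reads of the overlapping pair could be split by the counting. Y26D4A.21, in the same group of genes, did not share that order. It stood at 11.97, 15.1 and 14.99 FPKM in cantharidin, above all other libraries, and at 2.35, 2.04 and 1.15 in controls, a rise of 2.42 ± 0.41 (adjusted p = 2.55e-04). In starvation it stood at 0.402, 0.222 and 0.4205 and fell by 1.06 ± 0.41 (adjusted p = 0.0376).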
